A study of Mus musculus with 2 samples.

Results

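The cytosolic ribosomal protein genes of the mouse were followed in T cells from 1 *Foxp3Cre* WT mouse and 1 DKO-severe mouse. Members were chosen by symbol alone: names beginning with Rps or Rpl and a number, the stalk genes *Rplp0*, *Rplp1* and *Rplp2*, and *Rpsa*, without the S6 kinase genes (Rps6k) and symbols ending in -ps. This gave 86 of the 32285 genes in the deposited matrices. Of these, 77 encode the regular proteins of the cytosolic ribosome, 31 of the small and 46 of the large subunit, and are called core members here. The other 9 were kept apart: *Rpl22l1*, *Rps27l*, *Rps27rt*, *Rpl36al*, *Rpl7l1*, *Rpl3l*, *Rpl39l*, *Rpl10l* and *Rps19bp1*. The last of these encodes a protein that binds RPS19 and is not itself a ribosomal protein.

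Single-cell RNA sequencing (10x Genomics 3′ v3.1) was performed on TCRβ+ cells, which carry the αβ T cell receptor, from spleen pooled with lymph nodes (cervical and inguinal) of mice aged 14 weeks. DKO-severe mice are *Foxp3-Cre Tet2/3* fl/fl, so that Cre made from *Foxp3* deletes the DNA demethylase genes *Tet2* and *Tet3* in Treg cells, and they belong to the group with severe splenomegaly and lymphadenopathy. The WT mouse carries *Foxp3Cre* as well, and cells that once made Cre and later lost *Foxp3* keep the deletion and cannot be recognised by genotype in these counts. Cells of the mice carried different antibody hashtags, and the labels give 1 mRNA and 1 hashtag library for both, with 10000 cells loaded. The matrices held 7189 WT and 7161 DKO-severe barcodes, together above 10000, and the sources used here do not resolve this. The comparison asked how the share of a cell's transcripts that encode ribosomal proteins, and the level of each such gene, differed between the mice within each kind of T cell, and between naive and other T cells within each mouse.

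Each cytosolic ribosome joins a small subunit, which reads the mRNA, and a large subunit, which forms the peptide bond, and most of their proteins are present in 1 copy per ribosome. The mRNAs of these proteins are among the most abundant in lymphocytes, and they typically begin with a pyrimidine-rich stretch, the 5′ terminal oligopyrimidine (TOP) motif, through which mTOR signalling and the RNA-binding protein LARP1 set how strongly they are translated. Activated T cells enlarge and make more ribosomes, but the counts here are of mRNA and say nothing of translation or of ribosome number.

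After barcodes with fewer than 500 detected genes or above 10% mitochondrial UMIs and the highest 6% of doublet scores were removed, 6585 WT cells with a median of 5616 UMIs (distinct captured molecules) and 6377 DKO-severe cells with a median of 8072 remained. The matrices shared 0 barcodes, and 3 barcodes of the WT matrix with the larger count for the other hashtag were left out. Gates were set on RNA: B cells, cycling T cells, and then non-cycling Cd4 and Cd8 cells, where Foxp3-positive means 1 or more *Foxp3* UMIs in a Cd4 cell and naive means that genes of naive T cells, *Lef1* and *Ccr7* among those used, were detected and *Cd44*, *Pdcd1* and *S100a4* were not. The 4 T cell markers *Cd3d*, *Cd3e*, *Cd3g* and *Trac* summed to 2250 to 4360 CPM (UMIs per 1000000) in the T cell gates, against 16.7 and 12.1 CPM in the B gates, where the rule bars the *Cd3* genes. No gate took 26.5% of WT and 23.3% of DKO-severe cells. With 1 mouse per genotype nothing could be tested against the spread between mice, so each ratio has an exact 95% interval that covers counting error only, and a gene was counted as past the fold at a log2 ratio of 0.5 or more in either direction.

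Ribosomal protein transcripts made up 32.3% of all UMIs in the retained WT cells and 25.6% in the retained DKO-severe cells. The mice differed in the makeup of their cells as well as within gates: other Cd4 cells took up 11.6% of the WT and 29.8% of the DKO-severe cells, naive Cd4 cells 13.4% and 2.96%, and Cd8 cells 45.6% and 25.5%, and in WT too the share was lower in other Cd4 than in naive Cd4 or Cd8 cells. How much of the overall difference each accounts for was not tested. In other Cd4 cells, those that were neither naive nor Foxp3-positive, the pooled share was 28.7% in WT (761 cells) and 22.7% in DKO-severe (1899 cells), a log2 ratio of -0.34 (interval -0.34 to -0.33). In Foxp3-positive cells it was 26.4% (62 cells) against 20.3% (250 cells), a log2 ratio of -0.37 (-0.38 to -0.36) that was -0.17 without cells that carried markers of other lineages, and in cycling cells 26.7% (114 cells) against 21.9% (708 cells), a log2 ratio of -0.28 (-0.29 to -0.28).

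Naive cells went the other way or differed little. Naive Cd4 cells held 32.6% in WT (883 cells) and 33.9% in DKO-severe (189 cells), a log2 ratio of 0.056 (0.052 to 0.061) whose sign turned under another naive gate, where it was -0.23, and after thinning every cell to 3800 UMIs, where it was -0.068. Naive Cd8 cells held 34.6% (1890 cells) against 38.8% (516 cells), a log2 ratio of 0.17. Other Cd8 cells held 34.0% (1112 cells) against 32.7% (1113 cells), a log2 ratio of -0.058, which was -0.38 when cells with *Cd44*, *Pdcd1* or *S100a4* were allowed in the naive gate. For the Cd8 gate as a whole the shares were 34.4% and 34.7%, a log2 ratio of 0.012 that turned sign under 4 of the other settings tried.

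**Figure D1:**
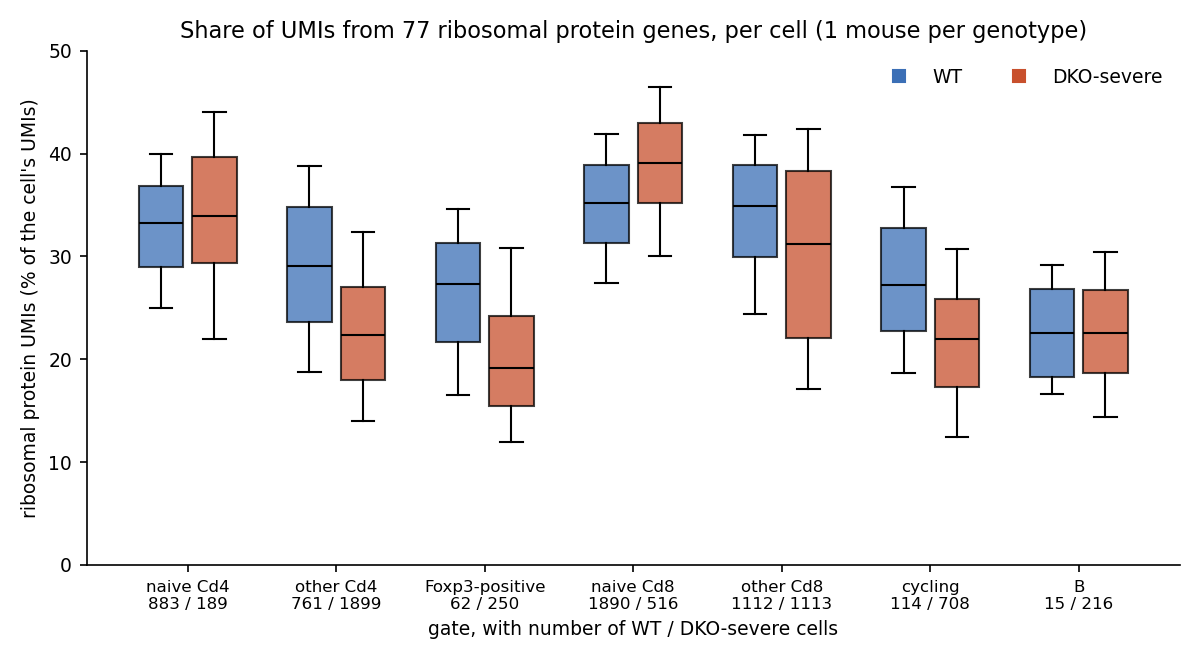
Share of each cell's UMIs that came from the 77 core ribosomal protein genes (y axis, percent) in 7 gates (x axis, with cell numbers), WT in blue and DKO-severe in red. Boxes span the quartiles over cells, the line is the median and whiskers reach the 10th and 90th percentiles; the DKO-severe boxes of other Cd4, Foxp3-positive and cycling cells sit below the WT boxes, and the naive Cd8 box sits above.

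The shares of single cells were lower in DKO-severe in the other Cd4 and Foxp3-positive gates as well. The per-cell share in other Cd4 cells had a median of 29.0% in WT (quartiles 23.6% to 34.8%) and 22.3% in DKO-severe (18.0% to 27.0%). Cells below a share of 20% made up 13.5% of WT and 35.7% of DKO-severe other Cd4 cells (exact binomial intervals 11.2% to 16.2% and 33.5% to 37.9%). Among Foxp3-positive cells they made up 21.0% and 55.6% (11.7% to 33.2% and 49.2% to 61.9%). These intervals treat cells as independent draws from 1 mouse each and do not cover differences between mice.

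A share can be low because ribosomal protein molecules are few or because other molecules are many, and the counts per cell separate these in part. A DKO-severe other Cd4 cell held a median of 1728 ribosomal protein UMIs against 1506 in WT, while its UMIs of all other genes had a median of 5907 against 3596. Mean ribosomal protein UMIs per cell were therefore 1.17 times as many and mean other UMIs 1.60 times as many. Foxp3-positive cells showed the same pairing, with medians of 1544 and 2079.5 ribosomal protein UMIs and of 3879.5 and 8238 other UMIs. The lower share thus went with somewhat more ribosomal protein UMIs per cell and still more UMIs of other genes. In naive Cd8 cells it was the ribosomal protein UMIs that differed more, with medians of 2153.5 and 3623.5 beside 3930 and 5491 for all other genes. A larger RNA content and a better capture of RNA cannot be told apart in these counts.

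Against cells of equal depth the same difference held in other Cd4 cells. Between 4000 and 6000 UMIs the pooled share was 29.9% in 367 WT cells and 22.8% in 371 DKO-severe cells, and between 8000 and 12000 UMIs it was 28.2% in 73 and 23.2% in 577 cells. The shallowest DKO-severe other Cd4 cells, between 1000 and 4000 UMIs, had a median share of 15.2% (102 cells) against 27.7% in WT (152 cells), with a lower quartile of 3.36%. Other Cd8 cells followed another course. In the DKO-severe mouse their pooled share was 19.2%, 22.2%, 29.7%, 35.3% and 35.7% from the shallowest to the deepest bin, while the WT bins lay between 28.9% and 34.8%. In the shallow bins the DKO-severe cells were below WT and in the 2 bins from 8000 UMIs upward they were above it.

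**Figure D2:**
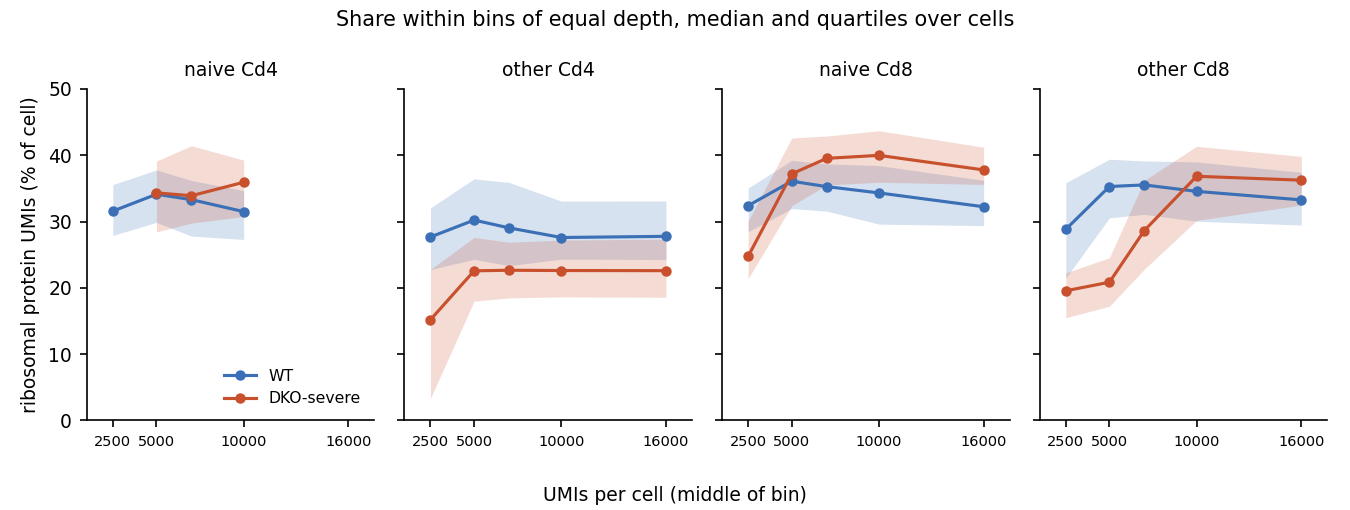
Ribosomal protein share per cell (y axis, percent) against the middle of the UMI bin (x axis, UMIs per cell) in 4 gates; points are medians over cells and bands the quartiles, for bins with 10 or more cells. The WT and DKO-severe lines run apart at every depth in other Cd4 and cross in other Cd8.

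Within each mouse, T cells outside the naive gate had a lower share than naive ones, by an amount that was larger in the DKO-severe mouse. Going from naive to other Cd4 cells the share was 32.6% and 28.7% in WT, a log2 ratio of -0.19, and 33.9% and 22.7% in DKO-severe, a log2 ratio of -0.58. All 77 core members were lower in other than in naive Cd4 cells in both mice, with a median log2 ratio of -0.18 in WT and -0.57 in DKO-severe beside 0.06 and 0.16 over all tested genes. In WT 0 of 77 were lower by 0.5 or more, where 1.1% of all tested genes were, and in DKO-severe 55 of 77 were, where 7.42% of all tested genes were. In Cd8 cells the log2 ratio of the share was -0.025 in WT and -0.25 in DKO-severe, with 65 and 77 of 77 core members below 0. Both steps in the DKO-severe mouse moved with the gate: when cells with *Cd44*, *Pdcd1* or *S100a4* UMIs could count as naive, the Cd4 value was -0.29 and the Cd8 value -0.53.

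Other Cd4 cells were described further by 4 transcripts, in subsets that overlap because a cell can carry several of them. Cells with a UMI of *Pdcd1*, which encodes the inhibitory receptor PD-1, held 20.9% in DKO-severe (886 cells) and 24.6% in WT (93 cells). Those with a UMI of *Il21*, a cytokine of follicular helper cells, held 21.1% (629 cells) and 20.8% (15 cells), a log2 ratio of 0.019 (-0.0029 to 0.041) with few WT cells behind it. Cells with 3 or more UMIs of *Cntn5* held 21.3% in DKO-severe (570 cells) and were almost absent in WT (2 cells). Cells with *Zbtb16*, the transcription factor PLZF of innate-like T cells, held 20.1% (70 cells) and 22.2% (18 cells). In DKO-severe cells the share was thus near 20% to 21% in each of the 4 overlapping subsets. Where none of them was, it was 26.5% in DKO-severe (630 cells) and 29.6% in WT (639 cells), a log2 ratio of -0.16 (-0.17 to -0.16). The cells without made up 84.0% of the WT gate and 33.2% of the DKO-severe gate, and shallower cells are more likely to show none of 4 transcripts.

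DKO-severe other Cd8 cells had a low and a high range of share. Of these cells 18.2% were below 20% and the quartiles were 22.1% and 38.4%, against 4.14% below 20% and quartiles of 29.9% and 38.9% in WT. After this was seen the gate was split by the granzyme genes *Gzma*, *Gzmb* and *Gzmk*, whose products are proteases of killer cell granules. Cells with a granzyme UMI held 26.4% in DKO-severe (477 cells, median over cells 22.2%) and 31.6% in WT (85 cells), and cells without held 35.8% (636 cells) and 34.2% (1027 cells). The granzyme-positive DKO-severe cells had a median of 1159 ribosomal protein UMIs against 3946.5 in those without, with 4472 and 6627.5 other UMIs. Here UMIs of both kinds were fewer, those of ribosomal proteins by more, in cells with a median of 5708 UMIs against 10713.5. In WT the medians were 2078 and 2277 ribosomal protein UMIs, with 4431 and 4288 other UMIs.

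**Figure D3:**
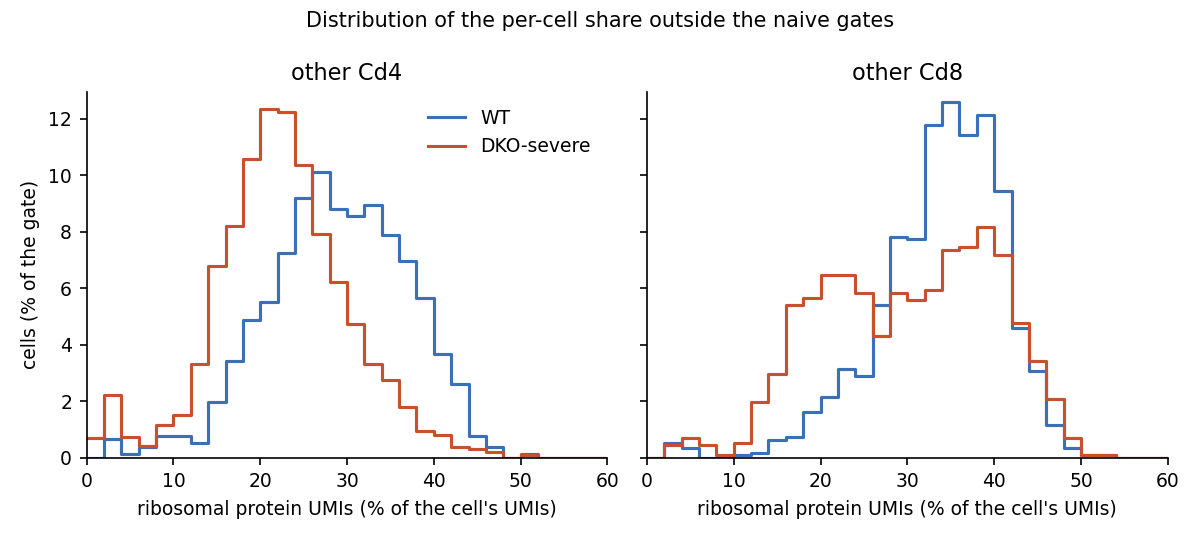
Distribution of the per-cell ribosomal protein share (x axis, percent of the cell's UMIs, in bins of 2 points) in other Cd4 and other Cd8 cells (y axis, percent of the gate's cells), WT in blue and DKO-severe in red. The DKO-severe other Cd4 curve lies to the left of WT, and the DKO-severe other Cd8 curve has a low and a high part where WT has a single peak near 35%.

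Markers of other lineages were unevenly spread over the gates. All 4 granulocyte markers (*S100a8*, *S100a9*, *Ngp* and *Ltf*) had UMIs in each gate of T cells, and their summed level was 56.7 to 80.5 CPM in the WT gates and 58.4 to 16650 CPM in the DKO-severe gates, highest in cycling cells and 1114 CPM in other Cd4 cells. The 4 monocyte markers summed to 70.5 to 251 CPM in WT and 73.8 to 1444 CPM in DKO-severe, with *Csf1r* at 0 in naive Cd4 cells of the DKO-severe mouse. The plasma cell and erythroid lists were higher in WT in some T cell gates and lower in others. With WT given first, the 2 plasma cell markers summed to 726 and 9.76 CPM in other Cd4 cells. The direction was opposite in Foxp3-positive (2.46 and 62.5 CPM) and cycling cells (38.0 and 297 CPM). The 4 erythroid markers summed to 350 and 17.7 CPM in naive Cd4, 522 and 396 CPM in other Cd4 and 2671 and 2154 CPM in cycling cells. They were lower in WT in Foxp3-positive (19.7 and 22.3 CPM), Cd8 (106 and 139 CPM) and naive Cd8 cells (19.9 and 64.2 CPM). When every cell with 2 or more UMIs of B, plasma, monocyte, granulocyte, erythroid or platelet markers was left out, the log2 ratio of the share was -0.28 in other Cd4, -0.26 in cycling and -0.17 in Foxp3-positive cells. This left out most of the DKO-severe cells of these gates. In other Cd4 cells 521 of 761 WT and 776 of 1899 DKO-severe cells remained. In cycling cells 40 of 114 and 104 of 708 remained, and in Foxp3-positive cells 43 of 62 and 71 of 250. Cells below a share of 10% made up 1.97% of WT and 5.21% of DKO-severe other Cd4 cells. Granulocyte markers reached 10000 CPM or more in 1 of these 99 DKO-severe other Cd4 cells, in 0 of 16 such Foxp3-positive cells and in 23 of 47 such cycling cells. Free RNA could not be measured, because barcodes below the cell calls were not analysed here, and its part in these shares was not tested.

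The ends of the order of abundance were much the same in every gate, while members between them changed places. In other Cd4 cells *Rpl12* lay above *Rpsa* in WT (5792 and 5259 CPM) and below it in DKO-severe (3790 and 5194 CPM). *Rps24* (chromosome 14, 24487125 to 24496959, plus strand, GRCm38), a small subunit protein needed to process ribosomal RNA, had the highest level of all 77 in 15 of the 16 combinations of gate and mouse, and *Rpl13* took its place in cycling DKO-severe cells. *Rpl31* was the lowest in all gates but naive Cd4, where *Rpl4* was. Levels were counted at the 3′ end, 1 tag per molecule, and are not scaled to length. No core member was at 0 in any gate, and the 10 most abundant made up 21.5% to 23.2% of the ribosomal protein UMIs.

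The lower level in other Cd4 and Foxp3-positive cells ran across nearly all core members rather than through a few. In other Cd4 cells 75 of 77 had a log2 ratio of DKO-severe over WT below 0, with a median of -0.32 beside 0.07 over all tested genes. Past the fold were 8 lower, where 8.09% of tested genes were, and 0 higher, where 15.8% were. In Foxp3-positive cells 73 were below 0 with a median of -0.37 beside 0.12; 17 were past the fold on the lower side (background 12.1%) and 0 on the higher (26.6%). In cycling cells all 77 were below 0 with a median of -0.27 beside -0.01, yet 1, *Rps27* (-0.54), passed the fold on the lower side (background 10.1%) and 0 were higher (11.7%). The count past the fold in other Cd4 cells was thus close to the background, while nearly all members lay below 0. After thinning to 3800 UMIs per cell the lower counts were 15 in other Cd4, 32 in Foxp3-positive and 4 in cycling cells. All of these ratios share the total UMIs as denominator, so the members are not independent of each other.

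In naive Cd4 and Cd8 cells no core member passed the fold, though in naive Cd8 cells nearly all lay above 0. Naive Cd4 cells had 62 of 77 above 0, a median of 0.06, and 0 past the fold in either direction, where 7.21% of tested genes were lower and 6.73% higher. The Cd8 gate had 43 above 0, a median of 0.01, and again 0 past the fold (backgrounds 3.91% lower and 4.34% higher). When it was split, 76 of 77 were above 0 in naive Cd8 cells, with a median of 0.17 beside -0.10 over all tested genes, and 21 in other Cd8 cells, with a median of -0.05 beside 0.01. In the B gate 76 of 77 were above 0 with a median of 0.27 beside 0.32 over all tested genes, 0 were past the fold on the lower side (9.33%) and 3 on the higher (37.8%), namely *Rpl7a* (0.55), *Rps26* (0.53) and *Rps2* (0.50). That gate held 15 WT cells, in which plasma cell markers reached 22652 CPM against 4066 in DKO-severe, and its median share per cell was 22.6% in both mice.

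**Figure D4:**
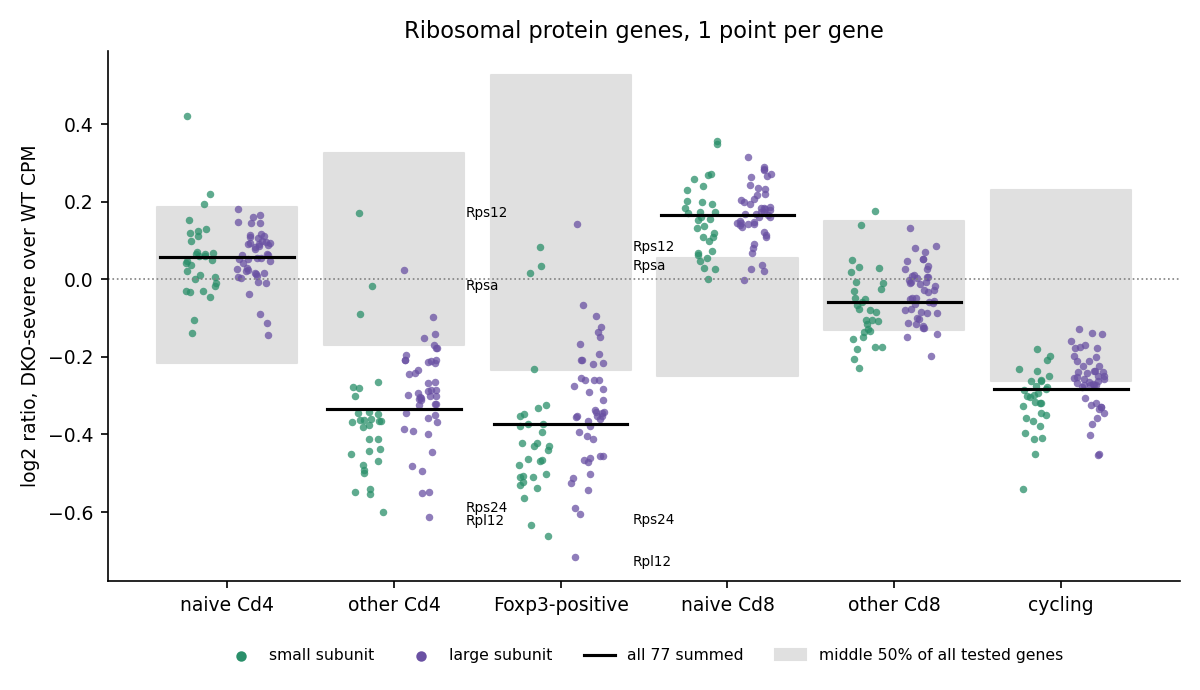
log2 ratio of DKO-severe over WT CPM for each core member (y axis) in 6 gates (x axis), small subunit genes in green and large subunit genes in purple; black lines give the 77 genes summed and grey boxes the middle 50% of all tested genes. The points of other Cd4, Foxp3-positive and cycling cells lie mostly below 0, with *Rps12* and *Rpsa* near the top and *Rps24* and *Rpl12* at the bottom of the labelled gates.

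Of the small subunit genes, *Rps24* and *Rps27* stood among the lowest. *Rps24* stood at 9903 CPM in WT but at 6530 CPM in DKO-severe other Cd4 cells, a log2 ratio of -0.60 (-0.62 to -0.58), at 8454 and 5454 CPM in Foxp3-positive cells (-0.63), and at 11832 and 11561 CPM in naive Cd4 cells (-0.03). *Rps27*, which encodes a zinc finger protein of the small subunit, was at 3736 and 2567 CPM in other Cd4 cells (-0.54) and at 2922 and 1846 CPM in Foxp3-positive cells (-0.66). *Rps16* (6407 and 4368 CPM, -0.55) and *Rps15* (2561 and 1751 CPM, -0.55) completed the lowest small subunit genes of the other Cd4 gate. The small subunit as a whole was somewhat further down than the large: the medians were -0.37 and -0.30 in other Cd4 cells and -0.43 and -0.34 in Foxp3-positive cells, and small subunit UMIs per large subunit UMI were 0.887 in WT and 0.845 in DKO-severe other Cd4 cells.

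Some small subunit genes did not follow. *Rps12* (chromosome 10, 23785183 to 23787275, minus strand) stood at 3783 CPM in WT but at 4262 CPM in DKO-severe other Cd4 cells, a log2 ratio of 0.17 (0.15 to 0.20), and was the highest of the 77 in that gate. In naive Cd4 cells it was at 3958 and 5300 CPM (0.42), in the Cd8 gate at 4690 and 5584 CPM (0.25), in Foxp3-positive cells at 3534 and 3742 CPM (0.08), and in cycling cells at 4969 and 4385 CPM (-0.18). After thinning to 3800 UMIs it was 0.20 in naive Cd4, 0.19 in Cd8 and 0.07 in Foxp3-positive cells. *Rps12* was thus above its family in each of these gates and above 0 in all but the cycling one. *Rpsa*, which encodes the laminin receptor protein that also sits on the small subunit, was at 5259 and 5194 CPM in other Cd4 cells (-0.02) and 5684 and 6506 CPM in naive Cd4 cells (0.19). *Rps2*, whose product lines the mRNA entry channel, was at 2802 and 2632 CPM (-0.09) and at 2965 and 3456 CPM (0.22) in the same gates. After thinning, *Rpsa* and *Rps2* were each at 0.09 in naive Cd4 cells. In Foxp3-positive cells *Rpsa* (0.03) and *Rps2* (0.02) also lay near 0, but at -0.12 and -0.26 after thinning. The SD of the 77 log2 ratios was 0.141 in other Cd4 and 0.168 in Foxp3-positive cells, beside a median full width of the 95% interval, which spans several standard errors, of 0.052 and 0.167.

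Of the large subunit genes, *Rpl12* (chromosome 2, 32961559 to 32965345, plus strand), which lies at the base of the stalk, was lowest in both gates. It stood at 5792 CPM in WT but at 3790 CPM in DKO-severe other Cd4 cells, a log2 ratio of -0.61 (-0.63 to -0.59), and at 4990 and 3037 CPM in Foxp3-positive cells (-0.72), but at 6984 and 7013 CPM in naive Cd4 cells (0.01). *Rpl13a* was at 4339 and 2961 CPM in other Cd4 cells (-0.55) and was the lowest of all in naive Cd4 cells at 4897 and 4436 CPM (-0.14). *Rpl5*, which carries 5S ribosomal RNA into the subunit and binds MDM2, was at 2601 and 1779 CPM in other Cd4 cells (-0.55). *Rpl41*, which encodes the smallest ribosomal protein, was at 2492 and 2534 CPM (0.02, and -0.01 after thinning to 3800 UMIs) in other Cd4 cells and at 2487 and 2745 CPM (0.14) in Foxp3-positive cells, where it was the highest of the 77.

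The stalk of the large subunit, which recruits the elongation factors, stood between 0 and the family median or close to that median in Foxp3-positive cells. *Rplp0* was at 4445 and 3762 CPM in other Cd4 cells (-0.24) and at 3832 and 3587 CPM in Foxp3-positive cells (-0.10). *Rplp1* was at 6319 and 5161 CPM (-0.29) and at 5527 and 4453 CPM (-0.31) in the same gates, and *Rplp2* at 3175 and 2543 CPM (-0.32) and at 2885 and 2220 CPM (-0.38). In naive Cd4 cells all 3 were slightly above 0, at 0.09, 0.09 and 0.07, and slightly below it after thinning, at -0.04, -0.05 and -0.04.

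The Cd8 gate repeated the ends of this order with smaller values. Lowest there were *Rps27* (-0.15), *Rpl35a* (-0.14), *Rps24* (-0.14), *Rps29* (-0.11) and *Rpl5* (-0.10), and among the highest were *Rps12* (0.25), *Rpl29* (0.15), *Rpl27* (0.15) and *Rpl3* (0.14). After *Rpl13a*, the lowest in naive Cd4 cells were *Rps15* (-0.14), *Rpl5* (-0.11), *Rps27* (-0.10) and *Rpl35a* (-0.09). With thinning *Rps15* was at -0.36 in naive Cd4 cells, and *Rpl13a*, *Rpl5*, *Rps27* and *Rpl35a* were each at -0.19. At the other end there *Rpl28* (0.18, and 0.02 after thinning) and *Rpl36a* (0.17, and -0.02 after thinning) stood behind *Rps12*, *Rps2* and *Rpsa*. In other Cd4 cells *Rpl24* (-0.10) stood behind the same 3 and *Rpl41*. In Foxp3-positive cells *Rpl21* (-0.60) and *Rpl35a* (-0.59) were among the lowest and *Rpl14* (-0.07) among the highest. The gates hold different cells of the same mice, so a like order in them is not a repeat in other animals.

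The start of the transcript was examined because TOP mRNAs share it. RefSeq promoter entries on GRCm38.p6 matched 57 of the 77 core members by symbol. A TOP start was sought on the gene's strand only, as a C at the annotated first base or within 2 bases of it that was followed by 4 or more bases, each C or T. It was found in 20 of the 57 (35.1%), beside 10.6% of 27025 genes in the whole table, 11.6% of 69 mitochondrial ribosomal protein genes and 2 of 10 genes of the translation factor list. The windows of *Rpl12*, *Rps24*, *Rps27*, *Rps16* and *Rps15*, among the lowest in other Cd4 or Foxp3-positive cells, and of *Rps6*, *Rps12* and *Rpsa* are printed from 15 bases before to 10 bases from the annotated start, on GRCm38.p6, with the pyrimidine run in capitals where one was found (chr2:32961697-32961721 plus, chr14:24490663-24490687 plus, chr3:90213639-90213663 minus, chr7:28350674-28350698 plus, chr10:80292416-80292440 plus, chr4:86857358-86857382 minus, chr10:23787200-23787224 minus and chr9:120127751-120127775 plus, in this order).
Rpl12: ggcggagcaggatccgtCTTTTCgg
Rps24: cccgcgctggggtCCTTCCTTgcgc
Rps27: atttccgctttcgCTCCTTTCCggc
Rps16: cccgcttctgtcgtgacgtagcact
Rps15: cccggcagagctcgcgataactgcg
Rps6: aagcggaagtcgggCCTCTTTTTCg
Rps12: taccgtcatgcggccaccgccggcc
Rpsa: gtgggttatttaaggacgtcatttc

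The members with and without the run had like medians. In other Cd4 cells the median log2 ratio was -0.33 over the 20 with it, -0.30 over the 37 without it and -0.35 over the 20 not in the table, and in Foxp3-positive cells it was -0.39, -0.35 and -0.41. *Rps6*, which has the run and encodes the protein that S6 kinase phosphorylates, was at 2192 and 1723 CPM in other Cd4 cells (-0.35), close to the family median. The windows of *Rps12* and *Rpsa*, near the top of the order, held no run at the annotated start, and neither did those of *Rps16*, *Rps15* and *Rpl5*, near the bottom, nor a further table entry for *Rps24*. An absent match says only that these letters were not at that start, since an annotated start can differ from the one in use.

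The members kept apart behaved one by one. *Rps27l* (chromosome 9, 66946086 to 66949516, plus strand), a paralog of *Rps27* known as a p53 target, stood at 112 CPM in WT but at 207 CPM in DKO-severe other Cd4 cells, a log2 ratio of 0.89 (0.76 to 1.03), and at 116 and 254 CPM in Foxp3-positive cells (1.13, 0.71 to 1.59). In naive Cd4 cells it was at 88.5 and 113 CPM (0.35, and 0.05 after thinning). In the Cd8 gate it was at 99.6 and 113 CPM (0.19, and 0.29 after thinning), and in cycling cells at 247 and 362 CPM (0.55). *Rps27l* was thus higher in each of these gates, and *Rps27* was lower in each. But *Rps27l* was also higher in the B gate (1.02, from 11 and 277 UMIs), where all 31 small subunit core members, *Rps27* among them, lay above 0. In naive Cd8 cells, where these 31 were also above 0, *Rps27l* made up 2.16% and 2.36% of the UMIs of both genes. Its UMIs made up 2.90% of those of both genes in WT and 7.46% in DKO-severe other Cd4 cells (exact binomial intervals 2.65% to 3.16% and 7.22% to 7.71%), 3.81% and 12.1% in Foxp3-positive cells, 9.69% and 18.6% in cycling cells, and 2.01% and 2.74% in naive Cd4 cells. Within the DKO-severe mouse it was at 113 CPM in naive and 207 CPM in other Cd4 cells (0.87), and in WT at 88.5 and 112 CPM (0.33).

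*Rpl22l1*, the paralog of *Rpl22*, was further down than its partner in other Cd4 cells and on the other side of 0 from it in the Cd8 gate. It was at 882 and 715 CPM in other Cd4 cells (-0.30) and *Rpl22* at 1810 and 1643 CPM (-0.14). In the Cd8 gate *Rpl22l1* was at 1043 and 905 CPM (-0.21) and *Rpl22* at 2014 and 2115 CPM (0.07), so that the paralog's part of the UMIs of both was 34.1% in WT and 29.96% in DKO-severe. In cycling cells it was 38.7% and 33.7%, and in naive Cd4 cells 32.2% and 31.7%. Foxp3-positive cells went the other way, with 29.2% and 30.6%. There the log2 ratios were -0.09 for *Rpl22l1* and -0.19 for *Rpl22*, but -0.40 and -0.30 after thinning to 3800 UMIs. *Rpl36al* was at 803 and 764 CPM in other Cd4 cells (-0.07), while *Rpl36a* was at 1267 and 994 CPM (-0.35), and its part of both was 38.8% and 43.5%. In naive Cd4 cells the log2 ratios were 0.11 for *Rpl22l1*, which was at 0.00 after thinning to 3800 UMIs, and 0.13 for *Rpl36al*.

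**Figure D5:**
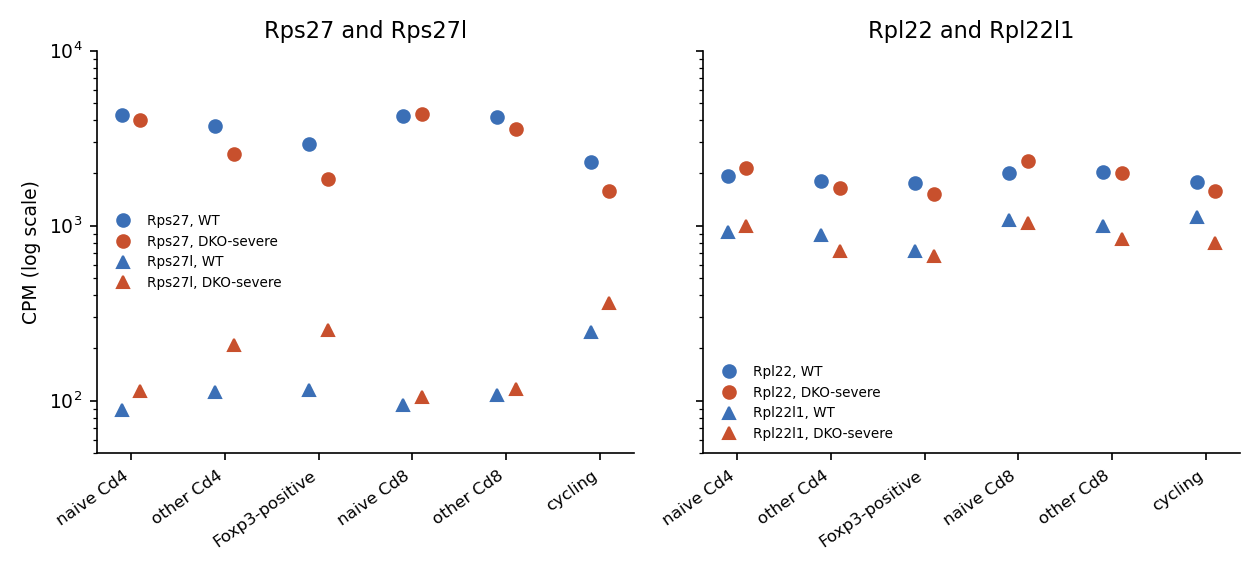
CPM on a log axis of *Rps27* and *Rps27l* (left) and of *Rpl22* and *Rpl22l1* (right) in 6 gates, core members as circles and paralogs as triangles, WT in blue and DKO-severe in red. In other Cd4 and Foxp3-positive cells the red circle of *Rps27* lies below the blue one while the red triangle of *Rps27l* lies above its blue one; *Rpl22* and *Rpl22l1* move by less.

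*Rps27rt*, a near copy of *Rps27* on chromosome 9, was at 81.8 and 56.4 CPM in other Cd4 cells (-0.54), as far down as *Rps27* itself. Its UMIs were 2.14% of those of both in WT and 2.15% in DKO-severe other Cd4 cells, and 2.10% to 2.63% in every T cell gate of either mouse. Reads that fit both copies cannot be assigned with certainty, so its own level is uncertain. *Rpl7l1* was at 56.7 and 60.7 CPM in other Cd4 cells (0.10), and *Rps19bp1* at 24.5 and 28.8 CPM (0.23) and, in cycling cells, at 16.2 and 37.6 CPM (1.22, from 26 and 492 UMIs). The testis and muscle paralogs were almost silent: over all retained cells *Rpl10l* had 0 and 1 UMIs, *Rpl3l* 8 and 21, and *Rpl39l* 21 and 98. Of the *Rpl39l* UMIs 46 lay in 24 DKO-severe Cd8 cells and 7 in 4 WT Cd8 cells, with at most 5 in 1 cell, at levels of 3.09 and 0.346 CPM.

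Ribosomal proteins that the symbol rule does not take were below 0 in other Cd4 cells as well, in the 2 genes given here. *Fau*, which encodes RPS30 fused to a ubiquitin-like protein, was at 5871 and 5105 CPM in other Cd4 cells (-0.20), and *Rack1*, a scaffold on the small subunit, at 2298 and 1955 CPM (-0.23). The nuclear RNA *Malat1* was lower in DKO-severe cells too, at 15631 and 11353 CPM in other Cd4 cells (-0.46) and at 12023 and 8974 CPM in the Cd8 gate (-0.42). The median mitochondrial part of the UMIs was 2.93% and 3.08% in other Cd4 cells. In the 99 DKO-severe other Cd4 cells with a share below 10%, *Malat1* was at 19248 CPM and the median mitochondrial part was 5.88%, and in the 15 such WT cells they were 14838 CPM and 4.34%. The part of RNA quality in the shares was not tested.

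Genes that act on the same pathway were less far down than the family. The 16 listed translation factors and other TOP mRNAs were all tested in other Cd4 cells, with 10 below 0, 0 past the fold in either direction and a median of -0.08. Among them *Eef1a1*, the main elongation factor, was at 4848 and 4237 CPM (-0.19), *Tpt1* at 10299 and 8543 CPM (-0.27) and *Npm1*, a nucleolar chaperone, at 1112 and 878 CPM (-0.34). The genes of these lists that are named here were picked after their values were seen. Of 20 ribosome biogenesis genes 17 were tested, with 2 lower (background 8.09%) and 1 higher (background 15.8%) past the fold and a median of -0.12. These were *Myc* (32.2 and 16.3 CPM, -0.98), which drives ribosome synthesis, *Polr1a*, the large subunit of RNA polymerase I (29.7 and 19.7 CPM, -0.59), and *Wdr12*, of the PeBoW complex (41.0 and 71.9 CPM, 0.81). Of 78 mitochondrial ribosomal protein genes 71 were tested, with 2 lower (*Mrpl58*, -0.89, and *Mrps28*, -0.61), 4 higher (*Mrpl52*, 0.72, *Mrpl34*, 0.69, *Mrps6*, 0.63, and *Mrps25*, 0.57) and a median of 0.08. Each of these biogenesis and mitochondrial counts, other than that of lower biogenesis genes, was below the share over all tested genes. Of the 11 genes listed as regulators of TOP mRNAs and mTOR, which include *Rps6*, 9 were tested with 0 past the fold and a median of -0.04.

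In Foxp3-positive cells the medians of the mitochondrial and cytosolic families had opposite signs. Of 59 tested mitochondrial ribosomal protein genes 19 were past the fold on the higher side and 2 (*Mrps9*, -0.72, and *Mrps35*, -0.51) on the lower, with a median of 0.33, where the backgrounds were 26.6% higher and 12.1% lower, the cytosolic core had a median of -0.37 and all tested genes 0.12. Many of the counting intervals included 0, such as those of *Mrps5* (-0.06 to 2.22), *Mrpl53* (-0.30 to 1.54) and *Mrps35* (-1.20 to 0.24). Others, such as that of *Mrpl20* (0.54 to 1.82), did not. The 16 translation factors had a median of -0.11 with 0 past the fold. In naive Cd4 cells 5 of 17 biogenesis genes were past the fold on the higher side and 1 on the lower, with a median of 0.40 (backgrounds 6.73% higher and 7.21% lower). The higher ones were *Ebna1bp2* (0.66), *Gar1* (0.64), *Myc* (0.52), *Dkc1* (0.51) and *Pes1* (0.51, interval -0.06 to 1.06) and the lower one *Polr1a* (-0.59). *Ncl*, the nucleolar protein nucleolin, lay just under the fold at 388 and 540 CPM (0.48). The naive Cd4 gates of the mice were not matched in naive and activation markers, and the part of that here was not tested. In the Cd8 gate 0 of 19 biogenesis genes were past the fold, with a median of 0.10.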

How the data were processed

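The deposited matrices hold raw UMI counts, made by the authors with Cell Ranger 7.1.0 on mm10, 1 matrix per genotype, split by hashtag; whether intronic reads were counted is not given in the sources used here. Genotype was taken as the larger of Hashtag 1 (WT) and Hashtag 2 (DKO) in each barcode. The matrices held 7189 WT barcodes with 45294779 UMIs and 7161 DKO-severe barcodes with 69692053 UMIs. Barcodes with fewer than 500 detected genes or above 10% mitochondrial UMIs were removed. Scrublet (scanpy 1.11.5) marked 0 barcodes by its automatic threshold, so the highest 6% of scores per matrix were removed. Analyses used numpy 2.4.6, scipy 1.17.1 and pandas 2.3.3.

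Gates were exclusive and applied to raw counts in this order. B cells had *Cd79a* together with *Cd79b* or *Ms4a1*, and no *Cd3d*, *Cd3e* or *Cd3g*. Cycling cells had a UMI of a *Cd3* gene and 2 or more of 6 genes (*Mki67*, *Top2a*, *Birc5*, *Ube2c*, *Cdk1*, *Ccnb2*). Cd4 cells had a *Cd3* gene and *Cd4* and no *Cd8a* or *Cd8b1*, and Cd8 cells had a *Cd3* gene and *Cd8a* or *Cd8b1* and no *Cd4*; both were then split into the Foxp3-positive (Cd4 alone), naive and other gates. The share of ribosomal protein UMIs was pooled over the cells of a gate and mouse, with an exact Clopper-Pearson interval. Per-gene CPM came from summed counts, a sum below 3 UMIs being set to 3; no log2 ratio was formed if neither sum exceeded 3 or if this floor turned the direction. These ratios have exact intervals conditional on both sums. All intervals cover counting error only and there is no test, since each genotype is 1 mouse. Genes with a mean of 20 or more CPM and 100 or more UMIs over both mice entered the counts past a log2 ratio of 0.5 and are called tested. The ratio was checked on simulated counts. Alternatives were thinning to 3800 UMIs, which left out 10.5% of WT and 7.48% of DKO-severe cells, no doublet removal, a limit of 5% mitochondrial UMIs, equal weight per cell, other naive and *Foxp3* gates, leaving out marked cells or abundant genes, a depth window, a pseudocount of 5 CPM and no filter on low counts.

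Named core members were the 5 with the highest and the 5 with the lowest log2 ratio in naive Cd4, other Cd4, Foxp3-positive and Cd8 cells, with the stalk genes, *Rpsa* and *Rpl22*; members apart were named from 5 CPM in any gate, and the 3 below that by their UMIs. Some genes that the rules take are not reported here. Others were named after their values were seen. Members, lists, subsets and gates were chosen with earlier results of these data known. Gene coordinates are from GENCODE vM21 (GRCm38) and promoter sequences from RefSeq; no protein sequences were used here.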

Additional observations from a re-analysis of the deposited data

Results flagged for a closer look

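The ribosomal protein share was on opposite sides in different kinds of cell. The log2 ratio of DKO-severe over WT was above 0 in naive Cd4 cells (0.056), in the Cd8 gate (0.012) and in the B gate (0.27), and below 0 in other Cd4, Foxp3-positive and cycling cells. These differences between gates were not tested, because each genotype was 1 mouse. In the naive Cd4, Cd8 and B gates the sign also turned under other settings.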

How the results depend on the processing

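The log2 ratio of the ribosomal protein share is DKO-severe over WT unless other cells are compared with naive ones. Under all the alternatives listed above it stayed below 0 in other Cd4, Foxp3-positive, cycling and other Cd8 cells. It also stayed above 0 in naive Cd8 cells, and below 0 from naive to other cells of either mouse. Splits within a gate are not among these settings, and some went the other way. The share was higher in DKO-severe in other Cd8 cells from 8000 UMIs upward and in those without a granzyme UMI. In naive Cd8 cells between 1000 and 4000 UMIs it was lower in DKO-severe (80 WT and 12 DKO-severe cells). The sign of the log2 ratio turned in naive Cd4, Cd8 and B cells under some settings. The values that moved beyond their counting interval, or turned, were as follows. With cells thinned to 3800 UMIs it was -0.068 in naive Cd4, -0.39 in other Cd4, -0.47 in Foxp3-positive, -0.042 in Cd8, -0.33 in cycling, 0.034 in B, 0.11 in naive Cd8 and -0.14 in other Cd8, and from naive to other cells -0.16 for Cd4 in WT, -0.019 for Cd8 in WT, -0.48 for Cd4 in DKO-severe and -0.27 for Cd8 in DKO-severe. There 15 core members were lower past the fold in other Cd4, 32 core members were lower past the fold in Foxp3-positive and 4 core members were lower past the fold in cycling. Without doublet removal it was 0.036 in naive Cd4, -0.40 in Foxp3-positive, 0.0028 in Cd8, -0.28 in cycling and -0.063 in other Cd8, and from naive to other cells -0.030 for Cd8 in WT, -0.56 for Cd4 in DKO-severe and -0.26 for Cd8 in DKO-severe. With at most 5% mitochondrial UMIs it was 0.063 in naive Cd4, -0.32 in other Cd4, -0.36 in Foxp3-positive, 0.014 in Cd8 and -0.27 in cycling, and from naive to other cells -0.18 for Cd4 in WT, -0.022 for Cd8 in WT, -0.56 for Cd4 in DKO-severe and -0.25 for Cd8 in DKO-severe. With equal weight per cell it was 0.049 in naive Cd4, -0.36 in other Cd4, -0.070 in Cd8, -0.35 in cycling, 0.00052 in B, 0.15 in naive Cd8 and -0.17 in other Cd8, and from naive to other cells -0.18 for Cd4 in WT, -0.036 for Cd8 in WT, -0.59 for Cd4 in DKO-severe and -0.36 for Cd8 in DKO-severe. With a naive gate that ignored *Cd44*, *Pdcd1* and *S100a4* it was -0.23 in naive Cd4, -0.32 in other Cd4, 0.10 in naive Cd8 and -0.38 in other Cd8, and from naive to other cells -0.20 for Cd4 in WT, -0.050 for Cd8 in WT, -0.29 for Cd4 in DKO-severe and -0.53 for Cd8 in DKO-severe. With cells that carried markers of other lineages left out it was 0.092 in naive Cd4, -0.28 in other Cd4, -0.17 in Foxp3-positive, -0.0023 in Cd8, -0.26 in cycling, -0.081 in B and -0.099 in other Cd8, and from naive to other cells -0.17 for Cd4 in WT, -0.015 for Cd8 in WT, -0.54 for Cd4 in DKO-severe and -0.28 for Cd8 in DKO-severe. In cells with 5000 to 10000 UMIs it was 0.093 in naive Cd4, -0.47 in Foxp3-positive, -0.014 in Cd8, -0.47 in cycling, 0.30 in B and -0.17 in other Cd8, and from naive to other cells -0.17 for Cd4 in WT, -0.0097 for Cd8 in WT, -0.60 for Cd4 in DKO-severe and -0.35 for Cd8 in DKO-severe. With mitochondrial, immunoglobulin and haemoglobin genes and *Malat1* left out it was -0.35 in other Cd4, 0.0039 in Cd8, -0.29 in cycling, 0.077 in B, 0.16 in naive Cd8 and -0.064 in other Cd8, and from naive to other cells -0.17 for Cd4 in WT. There 0 core members were higher past the fold in B. With 2 or more *Foxp3* UMIs required it was -0.25 in Foxp3-positive. These rested on 16 WT and 111 DKO-severe cells. The core counts above compare with 8, 17 and 1 lower and 3 higher in the gates as reported. A pseudocount of 5 CPM gave 7 and 16 lower in other Cd4 and Foxp3-positive cells, and neither it nor dropping the filter on low counts moved another of these counts. Leaving out marked cells also changes how many cells remain, and for the other settings the cause of the moves was not tested. No paired analysis was possible because each genotype was 1 mouse and no test was made, and for the same reason no replicate could be left out. The Foxp3-positive and B gates rested on 62 and 15 WT cells.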
